A study of Mus musculus with 7 samples.

Results

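The 9 genes described here are transcription factors and transcriptional repressors that mark paraxial mesoderm, the tissue beside the neural tube that is cut into somites. They were taken by name: Tbx6, Msgn1, Hes7, Ripply2, Meox1, Meox2, Tcf15, Foxc1 and Foxc2. All 9 were among the 30590 rows of the expression table. They were measured by bulk RNA-seq of polyadenylated RNA in 7 libraries of differentiating mouse embryonic stem cells. The line is Bry-GFP, and the labels give no clone, so all libraries share it. Day 0 (2 libraries) is stem cells kept on mouse embryonic feeder cells, which are fibroblasts, in medium with 15% FBS and LIF at 1000 U/mL. Day 2 (2 libraries) is embryoid bodies after 48 h of suspension culture in serum-free medium without LIF, seeded at 75000 cells per mL. Day 4 (2 libraries) follows 48 h of primitive streak induction with Noggin (150 ng/mL), Wnt3a (25 ng/mL) and Activin A (9 ng/mL). Day 6 (1 library) follows another 48 h as aggregates with bFGF at 10 ng/mL and without those factors. Days 4 and 6 also had no FBS and no LIF, and the same seeding density as day 2. Replicates are numbered 1 and 2 and called biological in the labels.

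In the embryo, Brachyury (T), Wnt and FGF signals at the tail end keep a pool of presomitic mesoderm. Tbx6 and Msgn1 turn these cells to a paraxial fate, and mouse embryos without Tbx6 form neural tubes in place of posterior somites. Hes7 is the oscillating repressor of the segmentation clock, which runs on Notch signalling. Ripply2 ends Tbx6 activity where a somite boundary forms. Meox1, Meox2, Tcf15 (also called paraxis), Foxc1 and Foxc2 then act in the somites themselves, and the Foxc genes are also active in other mesenchyme and in vessels.

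Levels are log2 of 1 plus scaled reads. Because low values lie in steps of whole reads, an approximate number of reads could be read from each value. Of the 39 member values above 0, 19 lay on a whole step. Numbers between steps were interpolated. The steps ended at 8 to 10 reads, and higher numbers were extrapolated in a straight line. By those steps the libraries held very roughly 2670000 to 5640000 reads. The level of 3 reads, below which differences cannot be read, was 1.45 and 1.71 (day 0), 2.12 and 2.25 (day 2), 2.30 and 1.81 (day 4) and 2.14 (day 6). Between 16613 and 18215 rows were above 0 in a library. An exact 0 in this table can be a failed estimate: Gapdh, a glycolysis enzyme that every cell uses, was listed at 0 (day 6). Its other values were uneven, at 6.19 and 7.13 (day 0), 1.85 and 3.44 (day 2) and 3.51 and 7.08 (day 4). Values above 0 can therefore be affected too. Pluripotency markers matched the day 0 label, with 8 of 8 between 8.06 and 11.40 in both libraries. Fibroblast genes were also high there: the 14 of the feeder list had a summed level of 14.29 and 14.48 (day 0), 10.27 and 9.72 (day 2), 8.48 and 8.35 (day 4) and 8.88 (day 6). Fewer cells of a type and less RNA per cell cannot be told apart in bulk RNA.

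The members stood low in every library. Of their 63 values 24 were listed at 0 and 30 reached the level of 3 reads. The highest was 5.29, for Tcf15 (day 0), and at that level 57.8% of the 21813 genes tested in that library stood at or below it. Msgn1 and Ripply2 were at 0 in every library and could not be tested, which left 7 members. By the F test of limma over all days 4 of these 7 changed, against 28.6% of all genes tested. They were Tcf15 (adjusted p = 0.0126), Foxc1 (adjusted p = 0.0189), Foxc2 (adjusted p = 0.0299) and Meox2 (adjusted p = 0.0466). In the plot of levels by day, Msgn1 and Ripply2 lie at 0, Hes7 lies below the dashed 3-read line and Tbx6 lies around it, while Meox1, Tcf15 and the Foxc genes stand above it on at least 1 day.

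**Figure D1:**
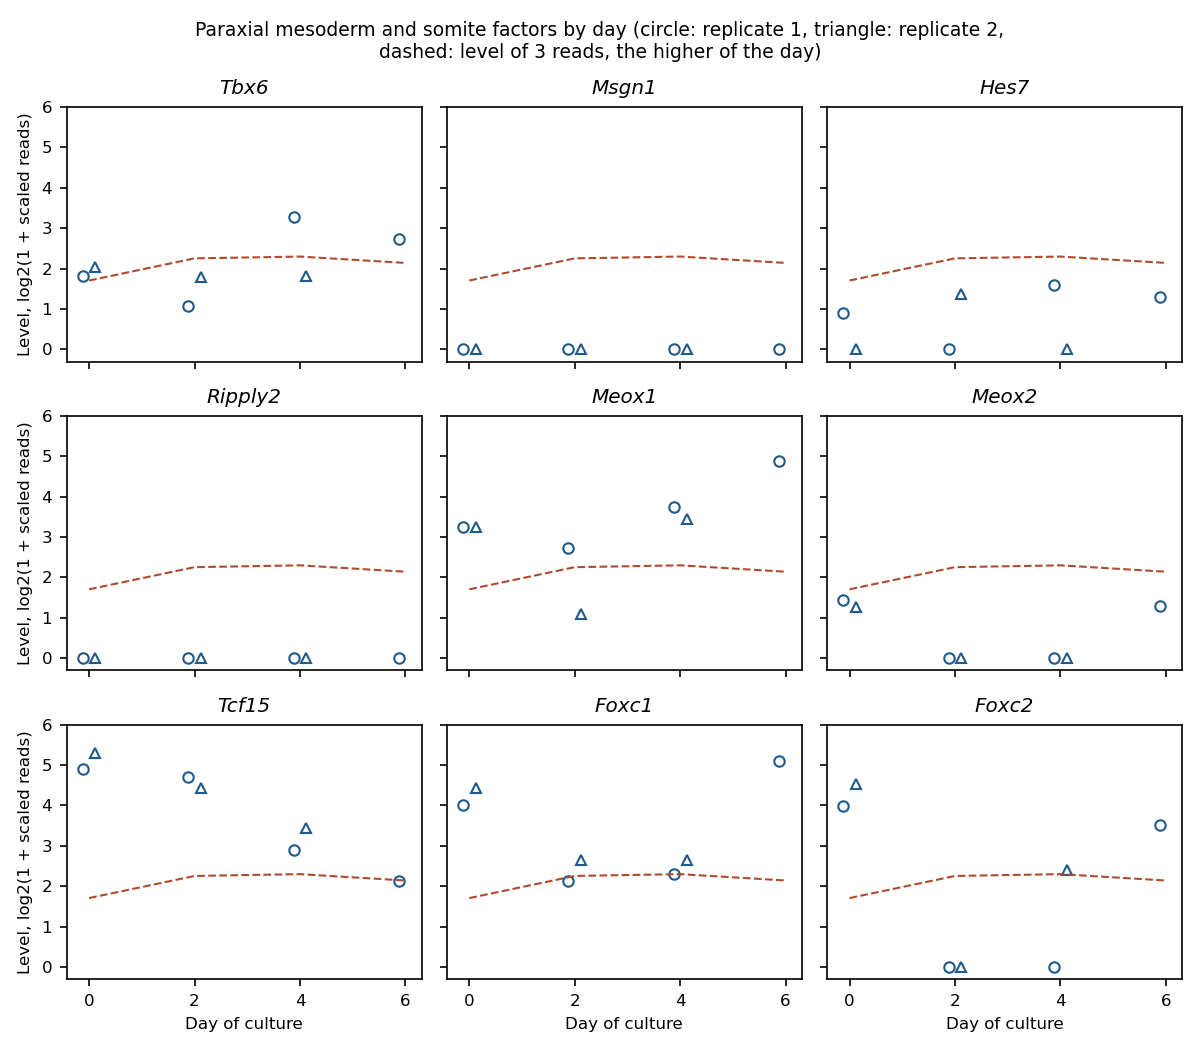
Level (log2 of 1 plus scaled reads, y axis) of each of the 9 genes against the day of culture (x axis), with replicate 1 as circles and replicate 2 as triangles; the dashed line is the level of 3 reads, the higher of a day's libraries. Msgn1 and Ripply2 lie at 0 throughout, and Foxc1 is higher on day 0 (4.00 and 4.44) and day 6 (5.09) than between.

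The promoters of the 4 genes of the presomitic clock and boundary are shown because their regulators are the signals supplied in the protocol or measured in the same libraries. The sequences are from RefSeq (GRCm38.p6), which held 6 of the 9 members. Each is printed 5′ to 3′ on the gene's strand, from 250 to 51 bases before the RefSeq start site. That site is 11208948 for Msgn1 and 69120453 for Hes7, not the GENCODE gene ends given with those genes, while the sites of Tbx6 and Ripply2 are the same in both. The windows are chr7:126781233-126781432 (plus strand, Tbx6), chr12:11208999-11209198 (minus strand, Msgn1), chr11:69120203-69120402 (plus strand, Hes7) and chr9:87015287-87015486 (plus strand, Ripply2). Capitals mark matches, on either strand, to 4 short motifs. These were TCACAC (a core bound by T-box factors), CTTTGA (the core bound by the Wnt effectors LEF and TCF), TGGGAA (the core bound by the Notch effector RBPJ) and CACNAG (the N-box bound by Hes repressors). TCACAC and CACNAG can share letters, but no matches overlapped in these 4 windows.
Tbx6: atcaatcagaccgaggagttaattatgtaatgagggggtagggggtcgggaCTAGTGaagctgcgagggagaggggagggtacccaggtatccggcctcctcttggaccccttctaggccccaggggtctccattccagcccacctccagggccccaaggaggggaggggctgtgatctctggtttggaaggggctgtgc
Msgn1: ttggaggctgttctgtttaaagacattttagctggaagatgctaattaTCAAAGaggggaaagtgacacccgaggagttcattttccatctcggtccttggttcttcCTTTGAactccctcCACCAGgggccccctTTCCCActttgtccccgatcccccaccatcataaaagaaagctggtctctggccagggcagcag
Hes7: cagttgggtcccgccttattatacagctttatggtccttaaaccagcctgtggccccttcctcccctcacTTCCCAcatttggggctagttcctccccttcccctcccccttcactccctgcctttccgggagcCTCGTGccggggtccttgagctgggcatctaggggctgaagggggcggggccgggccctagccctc
Ripply2: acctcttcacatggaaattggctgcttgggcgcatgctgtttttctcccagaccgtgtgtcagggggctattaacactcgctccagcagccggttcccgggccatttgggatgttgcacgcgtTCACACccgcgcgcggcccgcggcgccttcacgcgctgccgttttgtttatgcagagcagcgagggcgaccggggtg
Msgn1, a gene known to respond to Wnt, had 2 matches to CTTTGA, starting 202 and 143 bases before the start, and 1 each to TGGGAA and CACNAG. Of all 32851 promoter windows of the same length 11.8% held CTTTGA, 17.9% TGGGAA, 31.1% CACNAG and 10.1% TCACAC. Hes7 had 1 match to TGGGAA and 1 to CACNAG, Tbx6 had 1 to CACNAG, and Ripply2 had 1 to TCACAC. A match describes the letters only and is not a binding site.

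Msgn1, the helix-loop-helix factor of presomitic mesoderm (chromosome 12, 11208360 to 11208972, minus strand, protein-coding), was listed at 0 in all 7 libraries. Ripply2 (chromosome 9, 87015537 to 87019917, plus strand) was as well. Both transcripts are short, with 613 and 735 exonic bases, so that few reads fall on them. On day 4, 3 reads would correspond to 6.39 and 4.11 scaled reads per kb for Msgn1 and to 5.33 and 3.42 for Ripply2. Levels per kb below those were not detectable at this depth, and they are of the size measured for Tbx6.

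Tbx6, the T-box factor that commits cells to paraxial mesoderm (chromosome 7, 126781483 to 126785560, plus strand), was at 1.81 and 2.04 (day 0), 1.08 and 1.79 (day 2), 3.29 and 1.81 (day 4) and 2.72 (day 6). Those values correspond to 4 and 4, 1 and 2, 7 and 3, and 5 reads. The day 4 libraries straddled the day 0 level and only day 4 replicate 1 stood above day 6. Per kb Tbx6 had 4.86 and 1.40 scaled reads on day 4. Counting error alone allows 2.81 to 14.4 reads where 7 were seen and 0.619 to 8.77 where 3 were seen (exact Poisson intervals, 95%, for counting error only). No step passed the test: the log2 change was -0.49 (SE 0.65, adjusted p = 0.698) from day 0 to 2, 1.12 (SE 0.65, adjusted p = 0.408) from day 2 to 4, and 0.17 (SE 0.80, adjusted p = 1) from day 4 to 6. The 95% interval of the day 2 to 4 difference ran from -0.45 to 2.68 on the log2 scale.

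Hes7, the clock repressor (chromosome 11, 69120404 to 69124055, plus strand), was at 0.91 and 0 (day 0), 0 and 1.36 (day 2), 1.59 and 0 (day 4) and 1.30 (day 6). Every one of these lies below the level of 3 reads. On each replicated day 1 library was listed at 0 and the other was not. No comparison passed (adjusted p = 0.813 to 1). An uncharacterised gene lies over Hes7 on the opposite strand, and the sources used here do not give whether counting used strand.

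Meox1, a homeobox gene of somites (chromosome 11, 101877510 to 101894374, minus strand), reached the level of 3 reads in 6 of 7 libraries. It stood at 3.25 and 3.25 (day 0), 2.73 and 1.09 (day 2), 3.75 and 3.45 (day 4) and 4.88 (day 6), the last from about 24 reads. Day 4 and day 6 lay above both earlier days, and day 2 replicate 2, with 1 read, lay far below its pair. The log2 change from day 2 to 4 was 1.68 (SE 0.60, adjusted p = 0.173) and that from day 4 to 6 was 1.28 (SE 0.74, adjusted p = 0.343), neither past the threshold. The first of these was 0.86 without day 2 replicate 2 and 2.50 without day 2 replicate 1. Its relative Meox2 (chromosome 12, 37108540 to 37179534, plus strand) was at 1.45 and 1.26 (day 0), listed at 0 in all 4 libraries of days 2 and 4, and at 1.28 (day 6). That is at most 3 reads in any library. Its call over the whole course therefore rests on differences near the level of a few reads. Per kb, Meox1 stood at 12.8 scaled reads on day 6 and Meox2 at 0.605. A gene model overlaps Meox2 on the same strand and another overlaps Meox1 on the opposite strand, so reads could be shared there too.

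Tcf15, the helix-loop-helix factor that makes somites epithelial and is also known from stem cells about to differentiate (chromosome 2, 152143561 to 152149097, plus strand), was lower on each later day. It was at 4.91 and 5.29 (day 0), 4.71 and 4.44 (day 2), 2.90 and 3.45 (day 4) and 2.14 (day 6). No days overlapped. In reads this went from about 44 and 46 (day 0) to 3 (day 6). Per kb it was the highest member on day 0, at 29.6 and 38.8 scaled reads, and on day 6 it was at 3.48. The change over all days passed the F test (adjusted p = 0.0126), but no single step did. The largest step, from 4.57 ± 0.19 to 3.17 ± 0.39 between days 2 and 4 (SD, n = 2), was a log2 change of -1.40 (SE 0.39, adjusted p = 0.103). The F test calls of Tcf15 and Foxc1 held without either day 2 library and needed each library of days 0 and 4. That of Foxc2 held without day 4 replicate 2 only, and that of Meox2 was lost whichever library was left out. In the same libraries 3, 5 and 5 of 8 pluripotency genes fell in the 3 steps, beside 6.2%, 2.13% and 3.18% of all genes. Among them Zfp42 stood at 10.69 and 10.54 (day 0), 9.64 and 9.31 (day 2), 7.25 and 7.23 (day 4) and 5.86 (day 6). The part of these cells in the Tcf15 values was not tested.

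**Figure D2:**
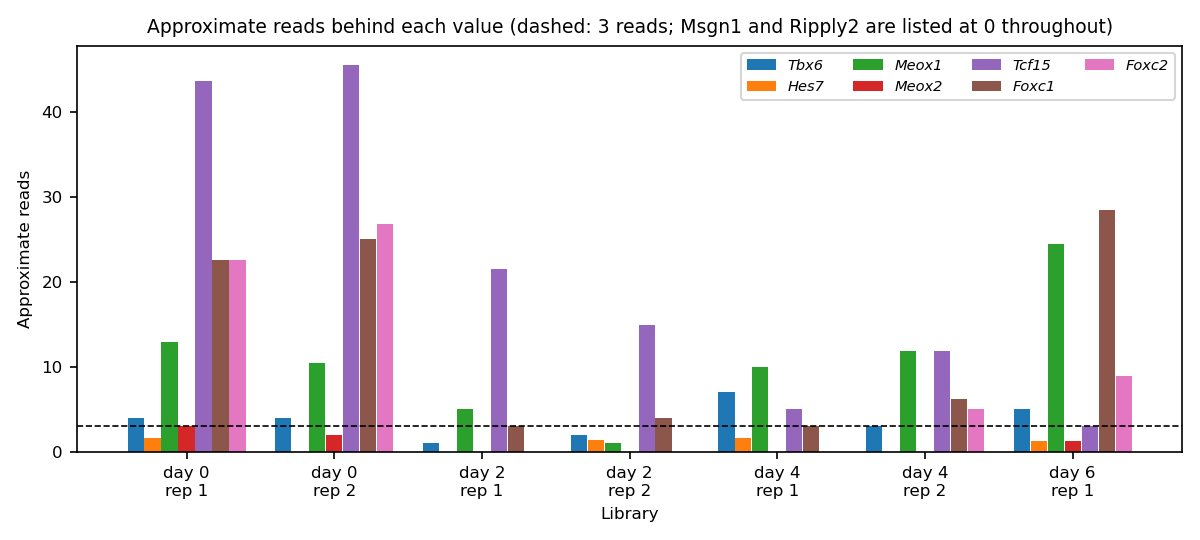
Approximate number of reads (y axis, from 0) behind each value of the 7 genes that were above 0 in any library, as bars grouped by library (x axis); the dashed line is 3 reads. Tcf15 leads the 4 libraries of days 0 and 2 and drops to 3 reads on day 6, where Foxc1 and Meox1 have the tallest bars.

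Foxc1 and Foxc2, forkhead factors of paraxial mesoderm and other mesenchyme, were higher at both ends of the course than between. Foxc1 (chromosome 13, 31806633 to 31812476, plus strand) was at 4.00 and 4.44 (day 0), 2.12 and 2.64 (day 2), 2.30 and 2.65 (day 4) and 5.09 (day 6). Days 0 and 2 did not overlap, and day 6 stood above every other library. It fell from 4.22 ± 0.31 to 2.38 ± 0.37 (SD, n = 2) between days 0 and 2, a log2 change of -1.84 (SE 0.44, adjusted p = 0.0421), or 0.279 of the earlier level. Because 1 is added to the scaled reads before the log, such folds understate the changes of low genes. Between days 2 and 4 its difference was within the spread (0.10, 95% interval -0.95 to 1.15, adjusted p = 0.985). It rose from 2.48 ± 0.25 to the 5.09 of the day 6 library, a log2 change of 2.62 (SE 0.54, adjusted p = 0.0487) or 6.14-fold. Foxc2 (chromosome 8, 121116171 to 121118895, plus strand) was at 3.99 and 4.54 (day 0), listed at 0 in both day 2 libraries, at 0 and 2.39 (day 4) and at 3.51 (day 6). In reads these were about 23 and 27 (day 0), 0 and 5 (day 4) and 9 (day 6). It fell from day 0 to 2 (adjusted p = 0.0222), and its later values did not pass (adjusted p = 0.486 and 0.217). A gene model on the same strand overlaps Foxc2, which could share reads with it. Across the 7 libraries the Pearson correlation of the 2 Foxc genes was 0.868, a description of libraries that share their days.

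In all, 2 of 7 members passed in day 2 against day 0, both lower (12% of all genes tested were called, 5.76% higher and 6.2% lower). None passed in day 4 against day 2 (3.59% called, 1.45% higher and 2.13% lower), and 1 did in day 6 against day 4, higher (4.46% called, 1.27% higher and 3.18% lower). Before adjustment 3, 2 and 2 of the 7 had a limma p under 0.05 in the 3 steps, beside 26.9%, 21.6% and 25.3% of all genes tested. Those of day 4 against day 2 were Meox1 and Tcf15. Of all genes tested 52.4%, 45.6% and 46.5% had a positive change in the 3 steps. The median log2 change of the 7 was -1.34, 0.11 and 1.28 over the 3 steps, beside 0.05, 0 and 0 over all genes tested, with Hes7, Meox2 and Foxc2 at their listed values. The Foxc1 call of day 2 was lost without any 1 of the 6 libraries of days 0 to 4 (adjusted p = 0.0904 to 0.176) and in a fit with the replicate number as a block (adjusted p = 0.0508). Its day 6 call was likewise lost without any 1 of them (adjusted p = 0.0719 to 0.168) and in the fit with that block (adjusted p = 0.0587), and it has no replicate. The Foxc2 call held without day 4 replicate 2 (adjusted p = 0.0447) and was lost without each of the other 5 (adjusted p = 0.0564 to 0.282). Without the robust option of limma both Foxc calls of day 2 were lost (adjusted p = 0.0669 for Foxc1 and 0.0564 for Foxc2) and so was that of Foxc1 on day 6 (adjusted p = 0.0682).

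**Figure D3:**
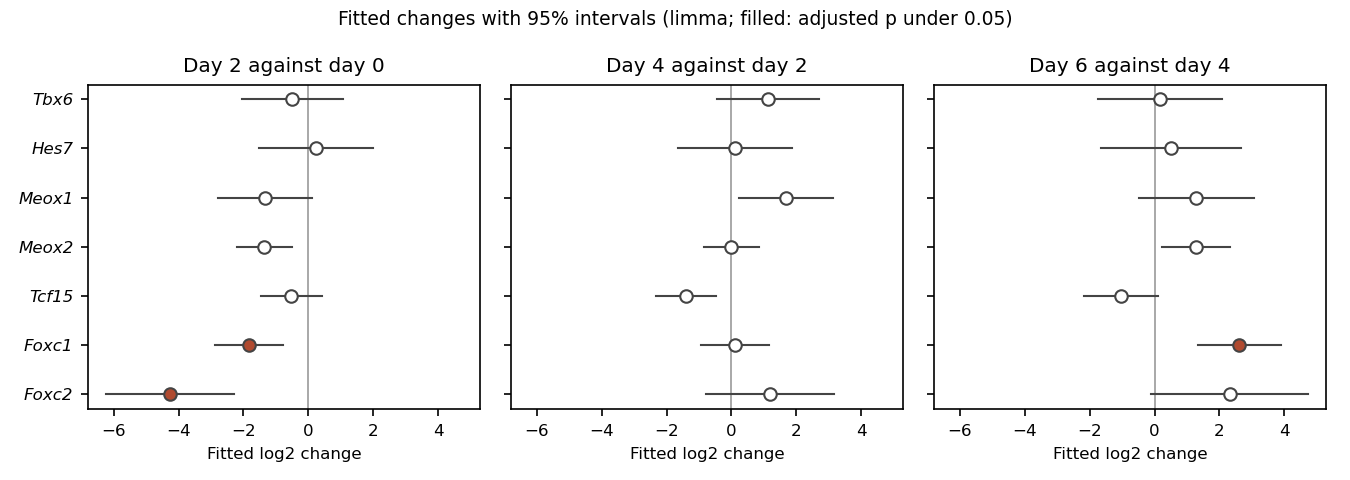
Fitted log2 change (x axis) of the 7 tested members for each step, as points with 95% intervals from limma, filled where the adjusted p is under 0.05. Foxc1 and Foxc2 are filled in day 2 against day 0 and Foxc1 in day 6 against day 4; values of Hes7, Meox2 and Foxc2 rest on libraries listed at 0.

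The fall of the Foxc genes took place beside that of the fibroblast genes. Of the 14 feeder genes 13 fell from day 0 to 2 (6.2% of all genes fell), at a median log2 change of -4.51. All 14 were above 0 (day 0). Col1a1, the main fibrillar collagen chain, was at 11.16 and 11.82 (day 0) and 7.17 and 6.12 (day 2), and Twist2, a fibroblast factor, went from 4.80 and 5.19 to 1.08 and 0. Tbx18, a gene of the anterior part of somites and of other mesenchyme, also fell, from 5.16 and 5.70 to 1.08 and 2.71 (adjusted p = 0.0191). Osr1, a factor of intermediate mesoderm and fibroblasts, was at 3.94 and 4.56 and then listed at 0 in both day 2 libraries (adjusted p = 0.00488). From day 2 to 4, 6 of the 14 feeder genes fell and none rose (2.13% and 1.45% of all genes), at a median of -1.64. In that step the change of Foxc1 was 0.10 and that of Foxc2 was 1.20, neither past the threshold. The part of the feeder cells in the day 0 values of the members was not tested.

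On day 6, where Foxc1 was highest, the fibroblast genes stood far below day 0. Their summed level was 8.88, against 8.48 and 8.35 (day 4), and 1 of 14 passed, Prrx1, a homeobox gene of mesenchyme, from 4.12 and 3.03 to 6.15 (adjusted p = 0.0443). Col1a1 stood at 3.65 and S100a4 and Twist2 at 0 (day 6). Over the list 8 of 14 changes from day 4 were positive, at a median of 0.86 (46.5% and 0 over all genes, of which 1.27% were called higher). Lox, which cross-links collagen, stood at 1.20 and 1.34 (day 4) and 3.19 (day 6) (adjusted p = 0.053). Acta2, a smooth muscle actin, stood at 3.64 and 4.54 (day 4) and 5.70 (day 6) (adjusted p = 0.118). The part of fibroblasts or other mesenchyme in the day 6 level of Foxc1 was not tested. Tbx18 was at 1.48 and 2.23 (day 4) and 4.01 (day 6). Kdr, the endothelial VEGF receptor, was at 4.08 and 4.06 (day 4) and 5.62 (day 6). Neither passed. The list of 9 lateral, cardiac and endothelial genes that holds Kdr had 5 positive changes in that step (46.5% over all genes). Pecam1, an endothelial gene of the same list, went the other way, from a mean of 6.02 (day 4) to 5.39 (day 6).

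**Figure D4:**
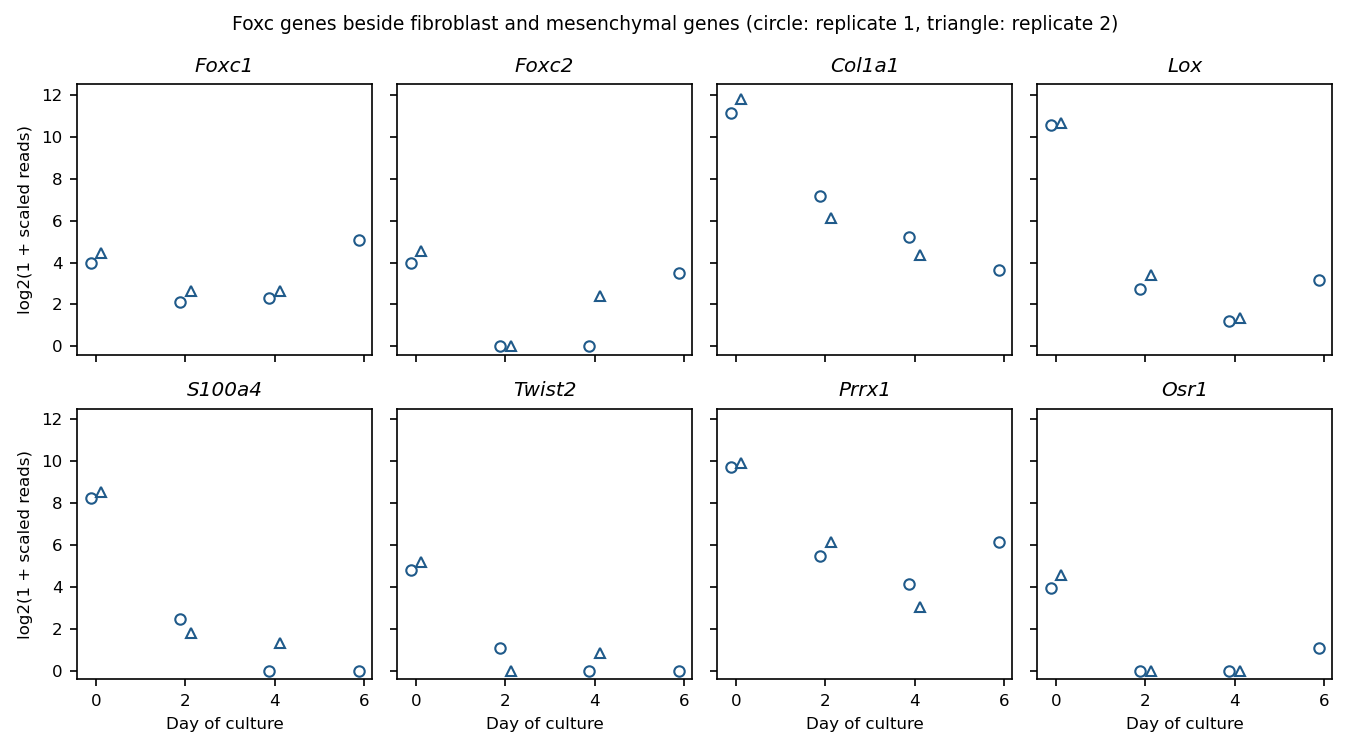
Level (log2 of 1 plus scaled reads, y axis) of Foxc1 and Foxc2 beside 6 fibroblast and mesenchymal genes by day of culture (x axis), circles replicate 1 and triangles replicate 2. All 8 are higher on day 0 than on day 2. On day 6 Foxc1, Foxc2, Prrx1 (6.15), Lox (3.19) and Osr1 (1.10) stand above day 4. Col1a1 (3.65), S100a4 and Twist2 (both 0) do not.

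Other genes of somite formation were read from 4 lists. Beside the counts that follow, 5.76% of all genes rose and 6.2% fell from day 0 to 2. From day 2 to 4 these shares were 1.45% and 2.13%, and from day 4 to 6 they were 1.27% and 3.18%. Their calls carry the same limit as those of the members: no gene of the table was called in day 4 against day 2 without any 1 library, in day 2 against day 0 without day 4 replicate 1, or in day 6 against day 4 without any 1 library of days 0 and 4. Of 14 genes of the segmentation clock, its Notch parts and its Wnt and FGF targets, 2 rose and 2 fell from day 0 to 2. From day 4 to 6, 4 of 14 changes were positive (46.5% over all genes), at a median of -0.18. Nrarp of this list had a mean of 5.02 (day 4) and was listed at 0 (day 6). From day 2 to 4, 3 rose and none fell, at a median log2 change of 1.39. All 14 changes were positive in that step (45.6% of those of all genes). Lfng, the Notch-modifying clock enzyme, was at 3.84 and 3.50 (day 2) and at 5.72 and 5.53 (day 4) (1.95, SE 0.32, adjusted p = 0.0308). Dll3, a Notch ligand of presomitic mesoderm, went from 3.46 and 3.26 to 5.87 and 5.56 (2.36, SE 0.36, adjusted p = 0.0252), and the receptor Notch1 rose by 1.83 (SE 0.36, adjusted p = 0.0498). Dll1, the Notch ligand that Tbx6 controls in presomitic mesoderm, was at 6.23 and 5.79 (day 2), 7.73 and 7.09 (day 4) and 7.69 (day 6) and did not pass that step (1.40, adjusted p = 0.15). Per kb, Dll1 stood at 50.1 and 32.0 scaled reads on day 4 and Lfng at 20.6 and 18.0, above the 4.86 and 1.40 of Tbx6 and the 1.11 and 0 of Hes7. Neural progenitors use the same Notch genes, and 5 of 12 neural progenitor genes rose in the same step, among them Hes5, which was at 1.70 and 0 (day 2) and 6.36 and 5.90 (day 4). The summed level of that list was 6.58 and 6.32 (day 0), 9.53 and 9.02 (day 2), 10.66 and 10.35 (day 4) and 11.02 (day 6), with 4 and 5 members at 0 (day 0) and none on days 4 and 6. Its part in the Notch values was not tested.

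Of 13 genes of the posterior growth zone, which feeds the presomitic mesoderm, 2 rose and 2 fell from day 0 to 2. From day 2 to 4, 1 rose and 1 fell, with 11 of 13 changes positive (45.6% over all genes) and a median of 0.67. From day 4 to 6, 2 fell, with 2 of 13 changes positive (46.5% over all genes) and a median of -1.81. The day 0 means of T (5.14) and Rspo3 (4.55) lay above their day 2 means (4.49 and 3.17), and neither change passed. T was at 3.18 and 5.80 (day 2), 9.02 and 8.67 (day 4) and 7.95 (day 6), and did not pass the day 4 step (adjusted p = 0.0638). Rspo3, a Wnt amplifier, rose in that step by 2.12 (SE 0.37, adjusted p = 0.0369), while Lef1, a Wnt effector and target, fell by 0.87 (adjusted p = 0.0494) and from day 4 to 6 fell by 1.81 (adjusted p = 0.0188). Wnt3a and Cdx1 were listed at 0 (day 6), and Fgf8 was at 5.52 and 4.99 (day 4) and 1.82 (day 6). None of these passed from day 4 to 6. The day 4 means of Wnt3a (2.455) and Cdx1 (1.98) were already near the level of 3 reads. Cdx1 had fallen from day 0 to 2, from a mean of 3.84 to 1.09 (adjusted p = 0.0167). Of 8 notochord and endoderm genes 5 rose from day 2 to 4, with a median of 4.25, the summed level going from 5.38 and 4.87 to 9.45 and 9.13. T is also a notochord gene, and the part of those cells in its level was not tested.

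Of 11 genes of somite boundaries and polarity 2 rose and 1 fell from day 0 to 2, none passed from day 2 to 4, where 7 of 11 changes were positive (45.6% over all genes), and 1 fell from day 4 to 6. In the middle step 4 of 11 had a limma p under 0.05 before adjustment (21.6% of all genes). The lowest adjusted p, 0.0602, was that of Uncx, a gene of the posterior part of somites, which was at 0 in each day 2 library, then at 3.64 and 2.48 (day 4). Mesp2, the switch of boundary formation that Tbx6 turns on, was at 1.08 and 2.78 (day 2), 0 and 2.14 (day 4) and 2.27 (day 6). Its relative Mesp1 was above 0 in 1 library, at 0.86. Pcdh8, an adhesion protein of presomitic mesoderm, was at 1.45 and 0 (day 0) and 4.68 and 4.76 (day 2) and rose (adjusted p = 0.00538), reaching 7.55 (day 6). Pax3, a factor of the dermomyotome and the dorsal neural tube, was at 1.22 and 0 (day 0), 5.07 and 4.60 (day 2), 7.80 and 6.36 (day 4) and 6.39 (day 6) (day 2 against day 0 adjusted p = 0.00877). Neural progenitor genes rose in that step too, 8 of 12, at a median of 1.98, with Sox1 going from 2.95 and 2.64 to 7.77 and 7.17.

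Among 12 genes of somite derivatives, 10 were tested, with Nkx3-2 (cartilage) and Myog (muscle) at 0 in all libraries. From day 0 to 2 Pax7, which also marks the dorsal neural tube, rose, from day 2 to 4 Sox9 rose, and none fell in either step. From day 4 to 6 limma called none (5 of 10 with p under 0.05 before adjustment, 25.3% of all genes), where 7 of 10 changes were positive (46.5% of all genes) and the median was 1.12. Of the muscle determination genes, Myf5 was at most at 2.32 and Myod1 at most at 1.20. Pax1, the sclerotome marker, was at 1.22 and 2.11 (day 0), 1.08 and 0 (day 2), 0 and 1.12 (day 4) and 3.03 (day 6). Pax9, its relative, was at 2.14 and 2.36 (day 0), 3.41 and 2.71 (day 2), 0 and 1.89 (day 4) and 3.67 (day 6), so that day 6 was near its day 2 level. Sox9, a cartilage and neural crest factor, was at a mean of 4.69 (day 0), at 3.76 and 3.43 (day 2), 6.35 and 5.50 (day 4) and 6.89 (day 6) (day 4 against day 2 2.33, SE 0.37, adjusted p = 0.0281).

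**Figure D5:**
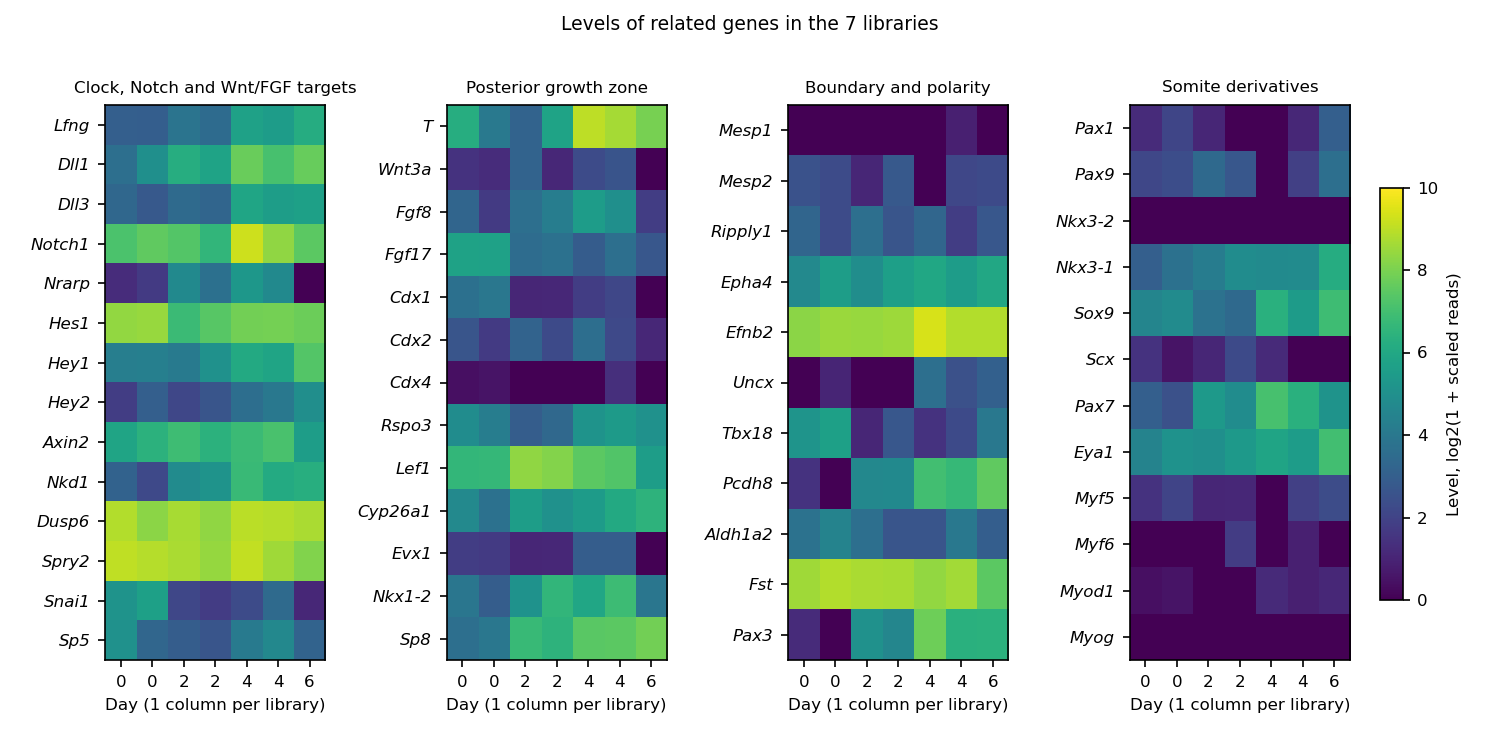
Levels (colour, log2 of 1 plus scaled reads from 0 to 10) of the genes of 4 related lists (rows) in the 7 libraries (columns, labelled by day, replicate 1 before 2). T, Dll1, Pax3 and Pcdh8 are brighter from day 4 on than on days 0 and 2, Notch1 is bright throughout, and Mesp1, Mesp2, Myod1, Myog and Nkx3-2 stay dark in every library.

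For the 4 members that reached a level of 4, the genes with the most similar course were found by Pearson correlation over the 7 libraries among 13115 genes. Serping1 (r = 0.983) and Pcdhb5 (r = 0.977) were most like Meox1. Enc1 and Slc39a14 (both r = 0.994) were most like Tcf15, with Slc39a14 at 9.01 and 9.17 (day 0) and 7.07 (day 6). Sh3glb1 (r = 0.993) and Tm9sf2 (r = 0.987) were most like Foxc1, and Endod1 (r = 0.98) and Rbms1 (r = 0.977) most like Foxc2. With 7 libraries from 4 days, the points share days and libraries, and the values are given as a description.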

How the data were processed

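RNA was measured in 7 libraries, with 0 columns of the table unmapped; 1 column name has a letter O where the label has a zero. The authors deposited natural log values (1 plus scaled reads), a unit inferred from their steps, and the top 9896 ranks agree within 0.01 between columns, so the authors had quantile normalized them. The build is GRCm38 per the submitters' processing notes. The sources used here do not give aligner, counter or annotation. Values were divided by the natural log of 2. The 8674 genes at 0 throughout and 103 foreign rows were left out, leaving 21813. Days were compared with limma-trend (limma 3.58.1, R 4.3.3, robust empirical Bayes, 1 mean per day, 3 residual degrees of freedom). Benjamini-Hochberg adjustment was over all genes, with a threshold of 0.05. The procedure was tried on simulated data, but no score from that trial is given here. The trial does not vouch for calls that rest on few reads, on values listed at 0 or on the 1 library of day 6. Day 6 has 1 library and is assumed to vary like the others. Read numbers come from steps shared by at least 60 genes. Gene positions and exonic lengths are from GENCODE M21. The members and lists were chosen with earlier results of these data known. 1 gene of the somite derivative list is not reported here and was left out of its counts. Members were named in every comparison, and of each list mainly those past the threshold or at the highest level; other list members (among them Mesp1, Mesp2, Myf5, Myod1, Pax1, Pax9, Uncx, Kdr and Tbx18) are named to describe their list and were chosen after their values were seen.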

Additional observations from a re-analysis of the deposited data

How the results depend on the processing

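Each comparison was repeated under other offsets, filters, centring and moderation and without single libraries. Of 262 such repeats of a member's log2 change, 11 were of the Meox2 change of day 4 against 2, which was 0 and has no direction. In the other 251 the direction was kept in 242, the Foxc2 change of day 4 against 2 became 0 in 1 (without day 4 replicate 2), and 8 reversed. The 8 reversals came when a single library was left out, in changes that had not passed: without single libraries Hes7 ran from -0.45 to 0.91 (day 2 against 0, with -0.22 the other reversal), -0.68 to 0.90 (day 4 against 2, with -0.57) and -0.29 to 1.30 (day 6 against 4), Foxc1 from -0.16 to 0.36 (day 4 against 2, with -0.08) and Tbx6 from -0.57 to 0.91 (day 6 against 4). Calls depended more on the setting. The mean-level filter kept Tcf15 alone among the members, so under it the others were not tested. Other settings kept or added calls. With low genes left out both Foxc calls of day 2 against day 0 held (adjusted p = 0.0297 for Foxc1 and 0.00665 for Foxc2). Meox1 was also called over all days with low genes left out and with an offset of 10 scaled reads. In day 2 against day 0, 2 members were called, 0 with the mean-level filter, 1 without the robust option (Meox2, adjusted p = 0.0204, with both Foxc calls lost), 1 with only those days in the fit (Foxc2) and 0 to 1 without single libraries. Without the trend the count was again 2, of Meox2 and Foxc1, with Foxc2 lost (adjusted p = 0.0648). In day 6 against day 4 it was 1, and 0 with the mean-level filter, without the robust option, without the trend and without any single library. Over all days it was 4, 1 with the mean-level filter, which Tcf15 alone passed, and 0 to 3 without single libraries. In day 4 against day 2 it was 0 under every setting run, 0 to 0 without single libraries. Of all genes, 2609 were called in day 2 against 0 (1419 without the trend, 0 to 691 without single libraries), and 6232 over all days (3728, and 0 to 4181). In day 4 against 2, 782 were called, 1422 with the mean-level filter, 1528 with low genes left out, 172 without the robust option, 168 without the trend and 0 to 0 without single libraries, where limma gave 3511 to 5135 genes an unadjusted p under 0.05. In day 6 against 4, 972 were called, 2200 with the mean-level filter, 1952 with low genes left out, 27 without the trend and 0 to 295 without single libraries. Leaving out a library lowers the residual degrees of freedom.

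Same-numbered libraries deviated together on days 2 and 4 (r = 0.222 over 11800 genes). They did not on days 0 and 2 (r = -0.0582) or days 0 and 4 (r = -0.0662). The labels give them a shared number and do not say whether they also share a batch. With the replicate block 1 member (Foxc2) was called in day 2 against 0, 0 in day 6 against 4 and 3 over all days, and 606 genes were called in day 6 against 4. At this depth no difference below the level of 3 reads can be read, which covers every value of Msgn1, Ripply2 and Hes7.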
